A study of Mus musculus with 8 samples.

Results

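The genes described here are 34 genes of the smooth muscle contractile programme, taken by their symbols from the 23420 gene symbols of the count tables. All 34 have a row and all 34 passed the filter on low counts. The genes and lists were chosen with earlier results of these data known. Counts and ranks below therefore describe these genes and are no independent support. The 34 were set in 3 groups from general knowledge. Taken as largely restricted to muscle were 19, and 13 were taken as expressed by uterine stroma too. A pair, Mustn1 and Rbpms, whose agreement with the smooth muscle myosin gene Myh11 was in question, made the last group. RNA of mouse uterine stromal cells was sequenced in 8 libraries at day 3, 4 from females labelled Erbb3f/f and 4 from females labelled Erbb3d/d. By the usual mouse notation, f stands for a floxed allele (with recombination sites on either side) and d for that allele once deleted. The labels name no Cre line, and do not state the event that day 3 counts from or whether each library is a separate animal, so p-values measure only the spread between these libraries. The comparison asks how these genes differ between the libraries labelled Erbb3d/d and those labelled Erbb3f/f.

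Smooth muscle contracts when calcium binds calmodulin and switches on myosin light chain kinase, which phosphorylates the myosin light chain and lets myosin pull on actin, while myosin phosphatase reverses this. The genes of the apparatus share a transcriptional control: serum response factor binds CArG boxes in their promoters, and the cofactor myocardin joins it. In the uterus the contractile layer is the myometrium, which surrounds the stroma, and vessel walls inside the stroma hold smooth muscle cells and pericytes. Stromal fibroblasts use many of the same actin-binding proteins for adhesion and shape.

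Reads assigned to genes numbered 8578575 to 12854367 per library, and levels are given as CPM, read counts scaled to a common library size. The targeted gene Erbb3, a receptor tyrosine kinase, read 7.40 to 12.3 CPM in Erbb3f/f and 7.37 to 17.7 CPM in Erbb3d/d, and its log2 fold change was 0.53 (SE 0.28, adjusted p = 0.485 in edgeR's quasi-likelihood test). Since its level was not reduced where the label says deleted, every direction here follows the labels only. Stromal transcripts were abundant in every library: collagen Col3a1 averaged 3447 ± 409 CPM (SD, n = 4) for Erbb3f/f against 3009 ± 539.6 CPM (SD, n = 4) for Erbb3d/d. Myh11, which stromal fibroblasts are not known for, was present in all 8 libraries at 119 CPM or more. In such bulk samples, more smooth muscle cells and more RNA per cell cannot be told apart.

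Of the 34 genes, 32 were higher on average in the libraries labelled Erbb3d/d and 2, Synpo2 and Pln, were lower. The median log2 fold change was 0.76, against -0.01 over all 14598 genes tested, of which 48% had a value above 0 and the quartiles were -0.15 and 0.16. None of the 34 passed the threshold of 0.05 on the adjusted p in edgeR's quasi-likelihood test, and 0% of all genes did. At an unadjusted p under 0.05 in the same test, 25 were higher and 0 lower, where 6.64% of all genes were higher and 4.97% lower. For 13 genes all 4 Erbb3d/d libraries lay above all 4 Erbb3f/f libraries, a separation seen in this direction for 2.56% of all genes, and 0 genes were separated the other way, against 2.48% of all genes. The log2 fold change was at least 1 for 11 of the 34 and at least 0.5 for 26.

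Other analyses did call genes of the set. DESeq2 called 9 of the genes higher (Cnn1, Kcnmb1, Pgm5, Jph2, Mylk, Myl9, Oxtr, Mustn1 and Rbpms), where it called 1.39% of all genes higher. With Erbb3d/d replicate 2 left out, edgeR called 6 higher (Kcnmb1, Pgm5, Mylk, Oxtr, Mustn1 and Rbpms), where 0.968% of all genes were called higher. With any other single library left out, edgeR called 0 of them. Erbb3d/d replicate 2 was the library of its label most like Erbb3f/f. Its chi-square per degree of freedom on raw counts, lower for more similar or shallower libraries, was 10.73 to 14.49 against the Erbb3f/f libraries. Against Erbb3d/d replicates 1, 3 and 4 it was 19.27, 28.54 and 35.55.

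The libraries of one label were far from alike. Summed over the 34 genes, the level was 4618 to 6702 CPM in Erbb3f/f and 6735 to 12340 CPM in Erbb3d/d, so the lowest Erbb3d/d library was close to the highest Erbb3f/f library. Erbb3d/d replicate 1 held the highest value of 27 of the 34 genes and Erbb3d/d replicate 4 of 5, while Erbb3f/f replicate 3 held the lowest value of 22. Erbb3d/d replicate 3 stood above every Erbb3f/f library for 14 genes, Erbb3d/d replicate 2 for 24, replicate 4 for 28 and replicate 1 for 32. Without Erbb3d/d replicate 1, 31 of the 34 genes were still higher in the libraries labelled Erbb3d/d, with a median log2 fold change of 0.61.

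**Figure D1:**
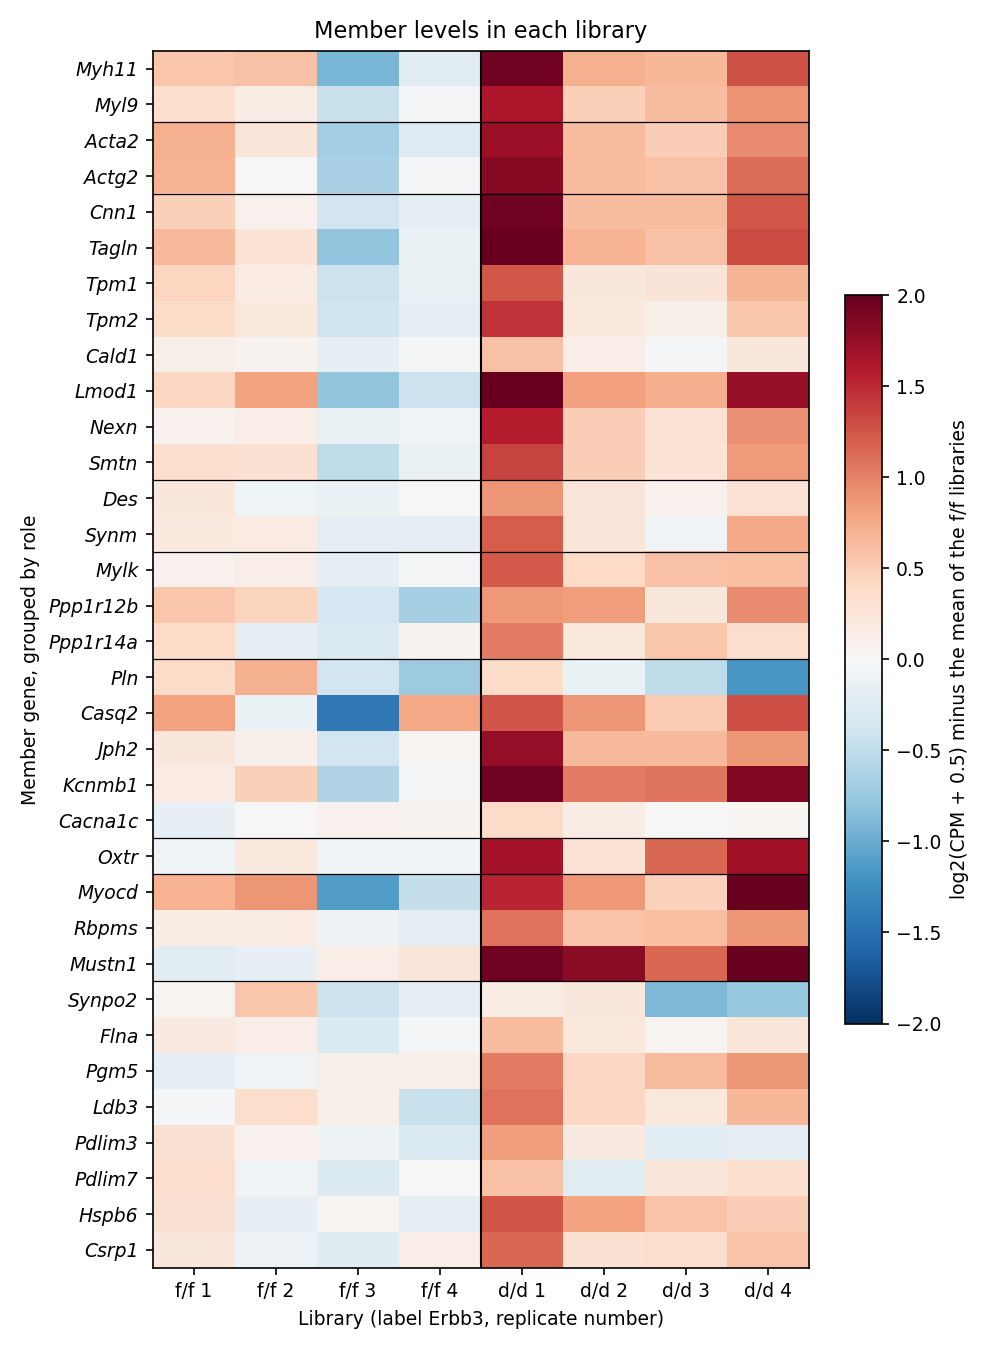
Level of each of the 34 genes (rows, grouped by role) in each of the 8 libraries (columns), as log2(CPM + 0.5) minus the mean of the 4 Erbb3f/f libraries. The Erbb3d/d replicate 1 column is the highest for 27 genes, and Erbb3f/f replicate 3 is the lowest for 22.

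Because the genes share a known promoter element, the 250 bases before each gene start were searched for the CArG box, which is a pair of C, a run of A or T, and a pair of G, and reads alike on both strands. RefSeq gave such windows (build GRCm38.p6) for 28 of the 34 genes. Myh11, Actg2, Tagln, Myocd, Nexn and Rbpms had no entry. The full box was in the windows of 2 of 28 genes, Ldb3 and Myl9 (7.14%, against 1.39% of the 10682 tested genes with a window). A box with at most 1 inner G or C was in 8 of 28, namely Synm, Ldb3, Jph2, Pdlim3, Hspb6, Acta2, Myl9 and Cacna1c (28.6%, against 9.29%). The median log2 fold change was 0.74 for these 8 and 0.67 for the 20 others with a window. A match describes the letters and is not evidence of binding.

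The stretches shown here, from RefSeq and 5′ to 3′ on the gene's own strand with matches in capitals, give the boxes of members with different roles and, for contrast, the window of Mustn1, which has no box in its 250 bases and the largest fold change of the 34. Bases that GENCODE places inside a first exon are left out of the long stretches. The Myl9 stretch (chr2:156775214-156775419, plus strand) holds a full box 161 bases and a box with 1 inner G or C 99 bases before the RefSeq start. In Ldb3 (chr14:34588683-34588931, minus strand) a full box begins 35 bases before the start. The Jph2 stretch (chr2:163397994-163398243, minus strand) has a box with 1 inner G or C 73 bases before the start. Both Acta2 boxes, each with 1 inner G or C, lie 84 and 34 bases before the RefSeq start in what GENCODE annotates as 5′ untranslated sequence, so each is given with 10 bases on either side (chr19:34255438-34255467 and chr19:34255388-34255417, minus strand). The Mustn1 stretch is chr14:30879007-30879199 on the plus strand.
Myl9: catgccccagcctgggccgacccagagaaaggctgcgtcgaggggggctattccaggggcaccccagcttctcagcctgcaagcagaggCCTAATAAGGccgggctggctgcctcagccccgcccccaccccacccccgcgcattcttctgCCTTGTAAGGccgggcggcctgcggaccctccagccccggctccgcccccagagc
Ldb3: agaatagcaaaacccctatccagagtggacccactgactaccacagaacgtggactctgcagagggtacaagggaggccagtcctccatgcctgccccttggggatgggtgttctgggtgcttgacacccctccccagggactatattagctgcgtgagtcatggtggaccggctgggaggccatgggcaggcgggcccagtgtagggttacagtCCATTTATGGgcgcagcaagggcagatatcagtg
Jph2: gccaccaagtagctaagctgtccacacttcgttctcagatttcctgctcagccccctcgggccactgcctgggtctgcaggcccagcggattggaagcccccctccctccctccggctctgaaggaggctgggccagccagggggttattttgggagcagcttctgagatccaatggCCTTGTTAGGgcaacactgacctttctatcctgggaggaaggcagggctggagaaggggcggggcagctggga
Acta2, farther box: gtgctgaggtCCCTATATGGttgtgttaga
Acta2, nearer box: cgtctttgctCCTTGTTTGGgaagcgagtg
Mustn1: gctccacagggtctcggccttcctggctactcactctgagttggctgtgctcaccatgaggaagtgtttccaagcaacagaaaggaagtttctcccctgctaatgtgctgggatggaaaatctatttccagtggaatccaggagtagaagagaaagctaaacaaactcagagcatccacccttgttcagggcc

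Among the motor proteins, Myh11 encodes the smooth muscle myosin heavy chain and is a standard marker of smooth muscle. It read 328, 336, 119 and 191 CPM in Erbb3f/f replicates 1 to 4, and 865, 365, 356 and 540.4 CPM in Erbb3d/d replicates 1 to 4. All 4 Erbb3d/d libraries lay above the highest Erbb3f/f library, the lowest by a small margin. Among the Erbb3f/f libraries, replicates 1 and 2 stood well above replicates 3 and 4, and replicate 3 was the lowest. The means were 244 ± 106 CPM (SD, n = 4) for Erbb3f/f against 532 ± 238 CPM (SD, n = 4) for Erbb3d/d, a log2 fold change of 1.13 (SE 0.39), for which edgeR gave an adjusted p of 0.337. Myl9, the regulatory light chain that the kinase phosphorylates, was likewise highest in Erbb3d/d replicate 1 and lowest in Erbb3f/f replicate 3, and 2 CArG forms stand in its promoter stretch. It read 203, 179, 118 and 158 CPM in Erbb3f/f replicates 1 to 4, and 497, 226, 249 and 301 CPM in Erbb3d/d replicates 1 to 4. Its groups did not overlap either, and its log2 fold change was 0.95 (SE 0.26).

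The actins and the proteins bound to the thin filament were led by the same library. Acta2, smooth muscle alpha actin, which activated fibroblasts also make, read 278, 199, 105 and 141 CPM in Erbb3f/f replicates 1 to 4, and 555, 261, 238 and 327 CPM in Erbb3d/d replicates 1 to 4. Erbb3f/f replicate 1 exceeded the 2 lower Erbb3d/d libraries, so the groups overlapped. Actg2, the gamma actin typical of visceral smooth muscle, gave a log2 fold change of 1.06 (SE 0.34) against 0.94 (SE 0.35) for Acta2, and its groups overlapped too. These actins have near-identical paralogs, and reads between them may have been assigned unevenly.

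Tagln, the actin-binding protein transgelin, read 414, 318, 152 and 239.5 CPM in Erbb3f/f replicates 1 to 4, and 1168, 427, 397 and 653 CPM in Erbb3d/d replicates 1 to 4. Only Erbb3d/d replicate 3 fell inside the Erbb3f/f range, and the log2 fold change was 1.24 (SE 0.40). A gene on the other strand shares 1241 exon bases with Tagln and the libraries do not keep the strand, so some of its reads may belong to that gene. Cnn1, calponin, which slows myosin's action on actin, read 82.8, 62.6, 45.6 and 51.6 CPM in Erbb3f/f replicates 1 to 4, and 229, 91.1, 92.3 and 141 CPM in Erbb3d/d replicates 1 to 4. It was higher in every Erbb3d/d library, with a log2 fold change of 1.19 (SE 0.32). Lmod1, leiomodin, which starts actin filaments, had a log2 fold change of 1.35 (SE 0.42), and Smtn, smoothelin, one of 0.77 (SE 0.26). For both, 3 of the 4 Erbb3d/d libraries exceeded the Erbb3f/f range. Nexn, nexilin, an actin-binding protein with few reads, had a mean of 11.2 ± 1.10 CPM (SD, n = 4) for Erbb3f/f against 21.3 ± 9.08 CPM (SD, n = 4) for Erbb3d/d and did not overlap.

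Tropomyosins and caldesmon, which line the actin filament and which fibroblasts use widely, differed less. Tpm1 had a log2 fold change of 0.63 (SE 0.26) and Tpm2 one of 0.66 (SE 0.31). Cald1 read 529.5, 514, 438 and 476 CPM in Erbb3f/f replicates 1 to 4, and 732, 536, 476 and 573 CPM in Erbb3d/d replicates 1 to 4. Erbb3d/d replicate 3 lay inside the Erbb3f/f range, replicate 2 just above it, replicate 4 somewhat higher and replicate 1 far above it. The log2 fold change of Cald1 was 0.24 (SE 0.13). The intermediate filament genes Des, which encodes desmin, and Synm, which encodes its partner synemin, stood at 0.40 (SE 0.17) and 0.61 (SE 0.25) on the log2 fold scale. In both, 3 of 4 Erbb3d/d libraries exceeded every Erbb3f/f library.

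The control of myosin by phosphorylation was represented by 3 genes, all higher. Mylk, myosin light chain kinase, read 664, 688, 549.5 and 609 CPM in Erbb3f/f replicates 1 to 4, and 1464, 825, 936 and 948 CPM in Erbb3d/d replicates 1 to 4. The groups were clearly apart, with 628 ± 61.6 CPM (SD, n = 4) for Erbb3f/f against 1043 ± 286 CPM (SD, n = 4) for Erbb3d/d, or 0.73 (SE 0.17) on the log2 scale. Ppp1r12b, a targeting subunit of myosin phosphatase, and Ppp1r14a, an inhibitor of that phosphatase also called CPI-17, differed by 0.67 (SE 0.28) and 0.56 (SE 0.22) on the log2 scale, with overlapping groups. A kinase, a phosphatase subunit and a phosphatase inhibitor were all higher on average, and RNA levels do not give the balance of their activities.

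Calcium handling and ion channels gave the widest range of log2 fold changes of any role, from -0.41 to 1.52. Kcnmb1, the beta subunit that tunes the large-conductance calcium-activated potassium channel of smooth muscle, read 14.3, 17.8, 8.17 and 12.3 CPM in Erbb3f/f replicates 1 to 4, and 50.4, 26.5, 27.1 and 46.9 CPM in Erbb3d/d replicates 1 to 4. Every Erbb3d/d library was well above the Erbb3f/f range, and the log2 fold change was 1.52 (SE 0.29), for which edgeR gave an adjusted p of 0.163. Jph2, junctophilin, which holds the calcium store close to the cell membrane, read 44.4, 41.0, 29.0 and 39.2 CPM in Erbb3f/f replicates 1 to 4, and 129.9, 59.6, 59.8 and 70.1 CPM in Erbb3d/d replicates 1 to 4. Erbb3d/d replicate 1 stood far above the other 3, which lay close together and still above the Erbb3f/f libraries, and the log2 fold change was 1.06 (SE 0.26).

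Pln, phospholamban, the brake on the calcium pump of the store, went the other way. It read 6.92, 8.80, 3.85 and 2.94 CPM in Erbb3f/f replicates 1 to 4, and 6.78, 4.67, 3.47 and 2.02 CPM in Erbb3d/d replicates 1 to 4. The groups overlapped broadly, and the highest value belonged to Erbb3f/f replicate 2. Its log2 fold change was -0.41 (SE 0.43), within 1 standard error of 0, and it rests on 23 to 84 reads per library and shares 1644 exon bases with a gene on the other strand. Casq2, the calcium-binding protein of the store, was the least expressed of the 34 per exon length, with 0 reads in Erbb3f/f replicate 3, which allows up to 0.236 CPM there, counting error only. It was measured at 0 to 1.85 CPM in Erbb3f/f and at 1.42 to 2.81 CPM in Erbb3d/d. Cacna1c, the pore of the L-type calcium channel through which calcium enters, read 77.5, 87.8, 93.0 and 92.0 CPM in Erbb3f/f replicates 1 to 4, and 115, 97.4, 86.6 and 90.1 CPM in Erbb3d/d replicates 1 to 4. Erbb3d/d replicate 2 exceeded the Erbb3f/f range by a small margin and replicate 1 by a larger one, while replicates 3 and 4 lay inside it. The log2 fold change of Cacna1c was 0.15 (SE 0.11).

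Oxtr, the oxytocin receptor through which the hormone drives uterine contraction, was the only receptor of the set. It read 28.1, 34.4, 29.0 and 28.9 CPM in Erbb3f/f replicates 1 to 4, and 95.8, 36.9, 67.3 and 97.7 CPM in Erbb3d/d replicates 1 to 4. The Erbb3f/f libraries were tightly grouped, 3 of the 4 Erbb3d/d libraries were well above them, and Erbb3d/d replicate 2 was just above their highest. The means were 30.1 ± 2.85 CPM (SD, n = 4) for Erbb3f/f against 74.4 ± 28.6 CPM (SD, n = 4) for Erbb3d/d. That is 1.31 (SE 0.27) on the log2 scale, and the adjusted p in edgeR was 0.188. Without Erbb3d/d replicate 2, the library of that label most like Erbb3f/f, the adjusted p in edgeR was 0.00292 and the log2 fold change 1.53.

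The 3 genes of the set filed as transcription or RNA regulators, Myocd, Rbpms and Mustn1, were higher on average as well. Srf, the serum response factor gene, is outside the set and read 185, 179, 161 and 164 CPM in Erbb3f/f replicates 1 to 4. In Erbb3d/d replicates 1 to 4 Srf read 207, 185, 154 and 145 CPM, and its groups overlapped. Myocd, myocardin itself, read 8.77, 10.1, 2.12 and 3.62 CPM in Erbb3f/f replicates 1 to 4, and 15.8, 9.91, 7.33 and 24.5 CPM in Erbb3d/d replicates 1 to 4. Its groups overlapped, since Erbb3f/f replicates 1 and 2 reached the level of the lower Erbb3d/d libraries, and the log2 fold change of 1.24 (SE 0.53) rests on 27 to 279 reads per library. Rbpms is an RNA-binding protein that directs smooth muscle splicing, and Mustn1 is a small nuclear protein of the musculoskeletal system. Both are described with Myh11 further on.

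Scaffold, LIM-domain and adhesion proteins were also mixed. Pgm5, a phosphoglucomutase relative found at muscle adhesion sites, read 220.3, 238, 271 and 270.3 CPM in Erbb3f/f replicates 1 to 4, and 504, 331, 386 and 462 CPM in Erbb3d/d replicates 1 to 4. Its Erbb3f/f libraries were close together, all Erbb3d/d libraries lay above them, and the log2 fold change was 0.75 (SE 0.14), for which edgeR gave an adjusted p of 0.133. Csrp1, a LIM protein, and Hspb6, a small heat shock protein of muscle, did not overlap either, at 0.62 (SE 0.19) and 0.85 (SE 0.24) on the log2 scale. Ldb3, a PDZ and LIM protein of the contractile lattice, had 0.64 (SE 0.28) with overlapping groups.

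Synpo2, the actin-bundling protein synaptopodin 2 or myopodin, was the second gene that was lower. It read 631, 887, 449 and 537 CPM in Erbb3f/f replicates 1 to 4, and 672, 707, 323 and 358 CPM in Erbb3d/d replicates 1 to 4. Erbb3f/f replicate 2 was the highest library and Erbb3d/d replicates 3 and 4 the lowest, with the other 5 between them, and the log2 fold change was -0.28 (SE 0.30). It takes the most reads of the muscle-restricted genes in Erbb3f/f and so weighs in their summed level. Flna, the actin crosslinker filamin A, and the LIM proteins Pdlim7 and Pdlim3 had the small log2 fold changes 0.29 (SE 0.15), 0.24 (SE 0.17) and 0.20 (SE 0.24). The value for Pdlim3 changed sign to -0.08 without Erbb3d/d replicate 1.

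**Figure D2:**
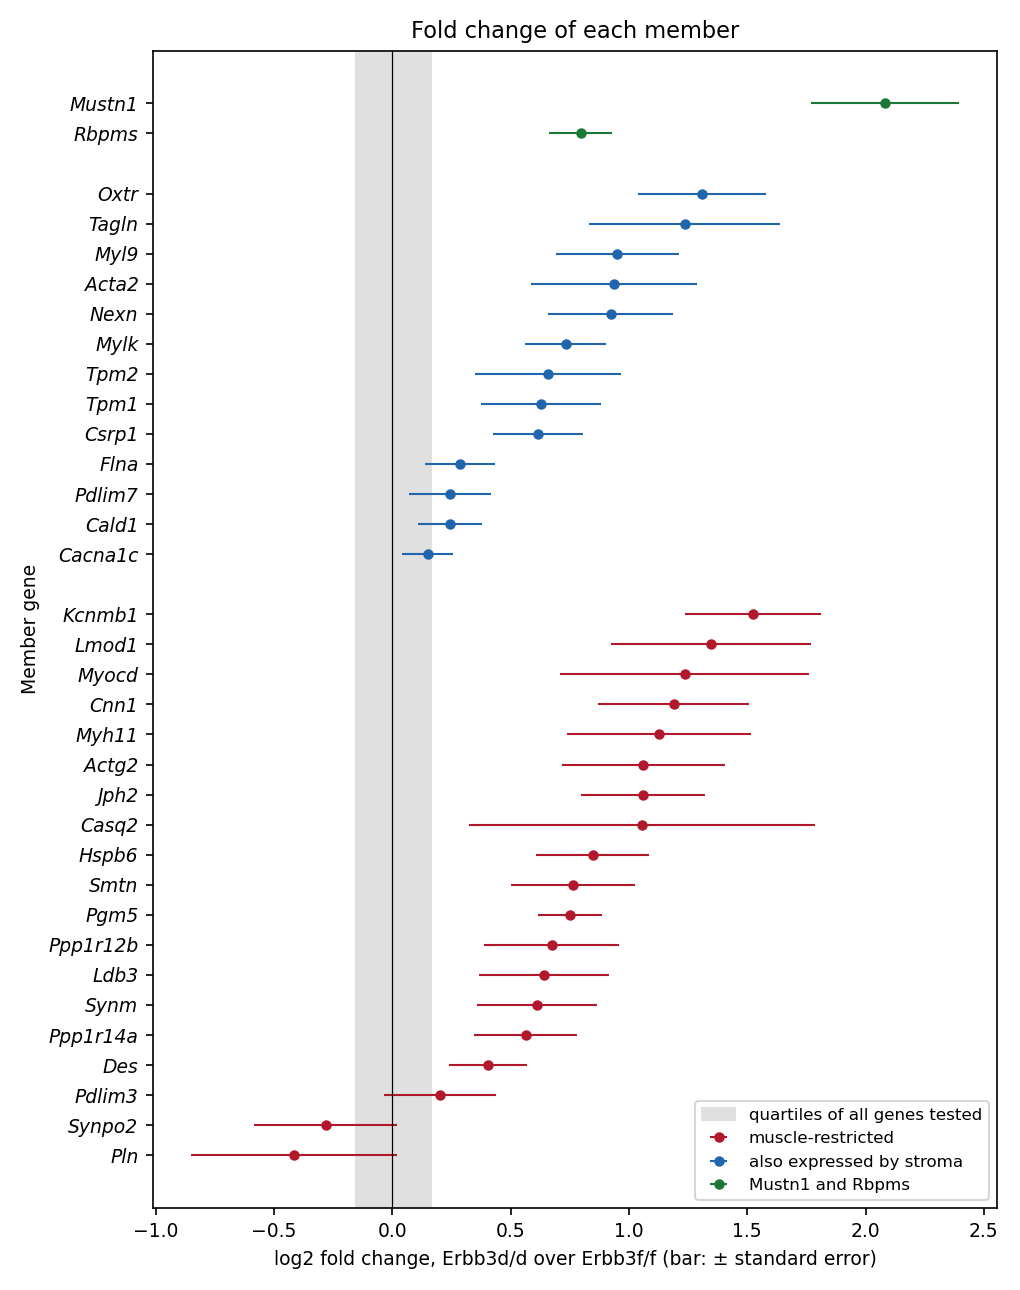
Log2 fold change of each of the 34 genes, Erbb3d/d over Erbb3f/f, with its standard error, grouped as muscle-restricted, also expressed by stroma, and the pair Mustn1 and Rbpms. The grey band spans the quartiles of all genes tested, -0.15 to 0.16, and only Cacna1c has its point inside it, while Synpo2 and Pln lie below it.

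The muscle-restricted genes were set against those that stroma also expresses. Of the 19 restricted genes 17 were higher, with a median log2 fold change of 0.77, 15 at an unadjusted p under 0.05 and 6 without overlap. Of the 13 shared genes 13 were higher, with a median of 0.66, 8 at an unadjusted p under 0.05 and 5 without overlap. Over all genes tested, 6.64% were higher at that unadjusted p and 2.56% were separated in this direction. Relative to the mean of the Erbb3f/f libraries, the median restricted gene stood at 1.26, 0.62, 0.50 and 0.88 on the log2 scale in Erbb3d/d replicates 1 to 4, and the median shared gene at 1.24, 0.29, 0.29 and 0.60. The restricted median was the higher of the pair in each Erbb3d/d library, by the least in replicate 1. Other measures went the other way. The log2 ratio of summed CPM was 0.52 for the restricted genes and 0.60 for the shared ones. The median Pearson r with Myh11 over the 8 libraries was 0.85 for restricted genes, Myh11 itself included, and 0.92 for shared ones. With each label's own mean removed, these medians were 0.73 and 0.88. In Erbb3f/f replicates 1 to 4 the restricted median stood at 0.34, 0.17, -0.38 and -0.19, and the shared one at 0.23, 0.14, -0.27 and -0.04. The shared group was itself uneven: Oxtr and Tagln had log2 fold changes of 1.31 and 1.24, while Cacna1c, Cald1, Pdlim7 and Flna ranged from 0.15 to 0.29. The difference between the 2 groups of genes was not tested, nor was whether stromal cells express any gene called restricted.

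A list of relatives of the same proteins, mainly non-muscle forms such as cytoplasmic actins and non-muscle myosins, was the next comparison. Relatives that muscle also expresses were not removed from it. Of 22 listed, 21 were tested, and 15 of them were higher and 6 lower, with a median log2 fold change of 0.07. At an unadjusted p under 0.05, 1 was higher and 2 were lower, against 6.64% and 4.97% of all genes. The most abundant, cytoplasmic actin Actb, averaged 1915 ± 134 CPM (SD, n = 4) for Erbb3f/f against 2017 ± 198 CPM (SD, n = 4) for Erbb3d/d. The smallest p among the relatives belonged to the LIM protein Pdlim5, with a log2 fold change of 0.62 (SE 0.16). It was followed by vimentin, Vim, at -0.47 (SE 0.13), and by the non-muscle calponin Cnn3 at -0.47 (SE 0.14). The calponins Cnn1, at 1.19, and Cnn3 thus had opposite signs, and neither passed the adjusted p.

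A wider list of 48 genes of calcium signalling, contraction and the myocardin and serum response factor pathway was read in the same way. It had 41 tested genes, of which 27 were higher, with a median log2 fold change of 0.05. At an unadjusted p under 0.05, 10 were higher and 2 lower, against 6.64% and 4.97% of all genes. The 3 smallest p-values belonged to Cacnb2, a calcium channel beta subunit, at 0.89 (SE 0.26), to the integrin Itga8 at 0.45 (SE 0.15), and to Kcnma1, the pore that Kcnmb1 modulates, at 0.92 (SE 0.30). The calcium pump Atp2a2, which phospholamban restrains, was the most abundant and differed little, at 473 ± 46.2 CPM (SD, n = 4) against 508 ± 66.5 CPM (SD, n = 4).

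Levels between genes were compared per exon length, as RPKM, the CPM divided by the exon length in kilobases. By the Erbb3f/f mean, Csrp1 was the highest of the 34 at 226 RPKM, followed by Myl9 at 142 and Tagln at 141 RPKM, all of them in the group that stroma also expresses. Des, at 82.8 RPKM, and Pgm5, at 69.2 RPKM, were the highest of the genes taken as muscle-restricted, and Myh11 stood at 32.1 RPKM. Whether stromal cells express Des or Pgm5 was not tested. At the other end, Casq2 was at 0.401, Ldb3 at 0.859 and Myocd at 0.956 RPKM. In Erbb3d/d the top 3 were Csrp1 at 346.5, Tagln at 333 and Myl9 at 274 RPKM.

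Whether Mustn1 and Rbpms follow Myh11 was examined from the libraries themselves. Rbpms read 105, 105, 88.7 and 83.8 CPM in Erbb3f/f replicates 1 to 4, and 204, 141, 144 and 176 CPM in Erbb3d/d replicates 1 to 4. The groups did not overlap, and the order of the Erbb3d/d libraries was nearly that of Myh11, with replicate 1 first and replicate 4 next. The means were 95.7 ± 11.1 CPM (SD, n = 4) for Erbb3f/f against 166 ± 29.5 CPM (SD, n = 4) for Erbb3d/d. On the log2 scale the labels differed by 0.80 (SE 0.13), less than the 1.13 of Myh11, and the adjusted p in edgeR was 0.13. Mustn1 read 2.44, 2.51, 3.22 and 3.50 CPM in Erbb3f/f replicates 1 to 4, and 12.6, 11.3, 7.01 and 18.7 CPM in Erbb3d/d replicates 1 to 4, from 24 to 41 reads per Erbb3f/f library and 89 to 213 per Erbb3d/d library. The groups were far apart, at 2.92 ± 0.527 CPM (SD, n = 4) for Erbb3f/f against 12.4 ± 4.82 CPM (SD, n = 4) for Erbb3d/d. A log2 fold change of 2.08 (SE 0.31) was the largest of the 34, and with an adjusted p of 0.109 in edgeR it ranked 5 by p among the 14598 genes tested. Mustn1 was listed with earlier results of these data known, so its rank is no independent support.

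Over the 8 libraries, Rbpms correlated with Myh11 at r = 0.906 (exact permutation p = 0.00109) and rho = 0.929 (exact permutation p = 0.00223). Adjusted over the 14597 relations with Myh11, these p-values were 0.269 and 0.358, and no gene had an adjusted p for r under 0.05. Without the 2 libraries farthest from the median Myh11 level, Erbb3d/d replicate 1 and Erbb3f/f replicate 3, r was 0.91. With each label's own mean removed, so that only the spread within labels counts, r was 0.88, and no p was computed for it. The exact permutations moved libraries freely between labels, so genes that both differ between labels can reach a small p from that alone. Mustn1 correlated with Myh11 at r = 0.679 (exact permutation p = 0.0647, adjusted 0.741) and rho = 0.786 (exact permutation p = 0.0279, adjusted 0.649), and r was 0.672 without the same 2 libraries. With label means removed, r was only 0.08. Mustn1 was highest in Erbb3d/d replicate 4, not replicate 1, though replicate 3 was the lowest Erbb3d/d library for both genes. Within Erbb3f/f the 2 libraries with the most Myh11 had the least Mustn1. These Erbb3f/f values rest on 24 to 41 reads each.

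The ratio to Myh11 gave no difference between labels that passed a test for either gene. The log2 ratio of Rbpms to Myh11 was -1.23 ± 0.58 (SD, n = 4) for Erbb3f/f against -1.59 ± 0.35 (SD, n = 4) for Erbb3d/d (two-sided exact permutation test over 70 assignments, p = 0.371). For Mustn1 it was -6.05 ± 0.90 (SD, n = 4) and -5.35 ± 0.57 (SD, n = 4), a difference of 0.70 (exact permutation test, p = 0.2). No assignment of 8 libraries can give a p below 0.0286 here. The difference for Mustn1 was 1.05 without Erbb3f/f replicate 3 and 0.45 without Erbb3f/f replicate 1, and it was 0.35 with 2 CPM in place of 0.5 CPM added before the log.

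**Figure D3:**
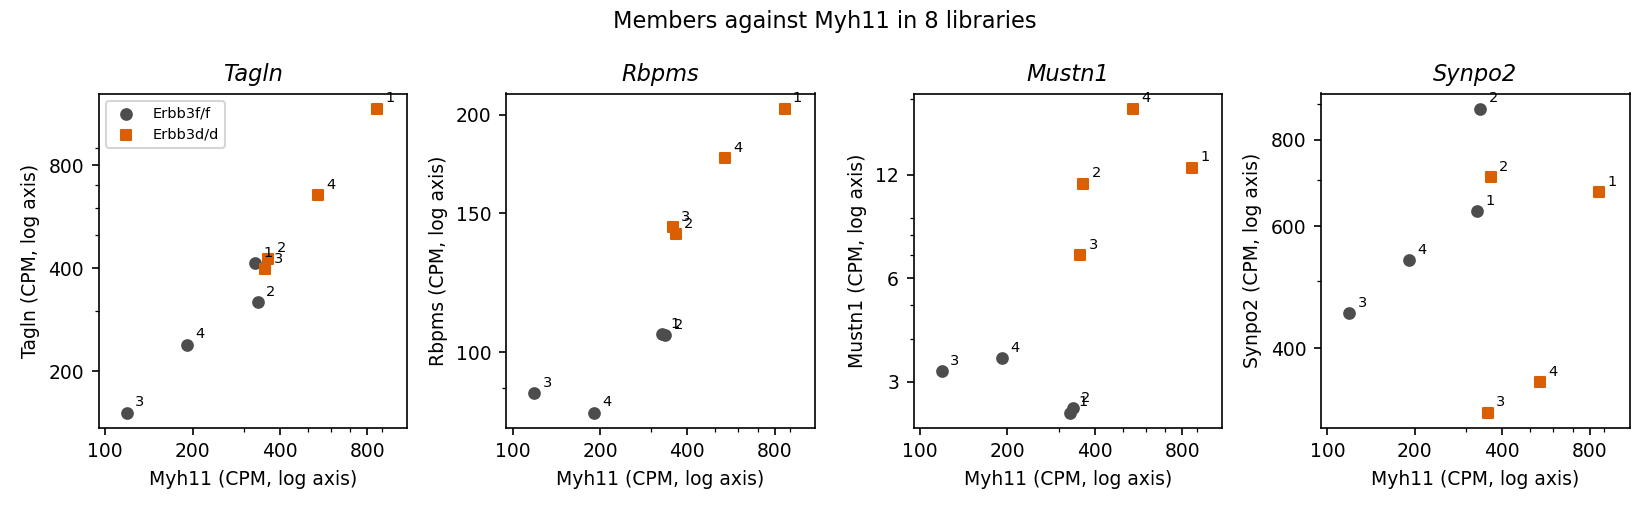
CPM of Tagln, Rbpms, Mustn1 and Synpo2 (vertical, log axis) against CPM of Myh11 (horizontal, log axis) in the 8 libraries, each point 1 library with its replicate number. Tagln and Rbpms are largely higher where Myh11 is higher in both labels, and Synpo2 shows no single trend. Mustn1 separates the labels without a trend common to both. In Erbb3d/d, replicate 3 is lowest for both genes, while in Erbb3f/f replicates 1 and 2 have the most Myh11 and the least Mustn1.

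The other members can be placed on the same scale. Correlations across these 8 libraries share depth and library make-up and are given as a description. Of the 33 genes other than Myh11, 17 had r of at least 0.9 with it, a level reached by 0.562% of all genes. With label means removed, 10 of 33 had r of at least 0.9, against 0.473% of all genes, and 29 had r of at least 0.5, against 13.1%. Smtn at 0.977, Tagln at 0.968, Lmod1 at 0.962, Acta2 at 0.958, Tpm1 at 0.956 and Flna at 0.954 followed Myh11 most closely in this form. Flna and Cald1 (0.882) thus followed it from library to library although their log2 fold changes were only 0.29 and 0.24. Cacna1c (0.109), Pgm5 (0.192) and Mustn1 (0.075) followed it least, yet Pgm5 and Mustn1 separated the labels fully. Following Myh11 within a label and standing apart between labels did not go together in every gene. Synpo2 and Pln, the genes that were lower, had r of 0.132 and 0.196 over the 8 libraries and of 0.567 and 0.615 with label means removed. Following Myh11 within labels was not particular to this set. The median r with label means removed was 0.83 for the 34 genes, Myh11 included, 0.618 for endothelial markers and 0.599 for pericyte markers. It was lower in the other lists outside the set, from -0.494 for mesothelial markers to 0.36 for the wider contraction list.

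**Figure D4:**
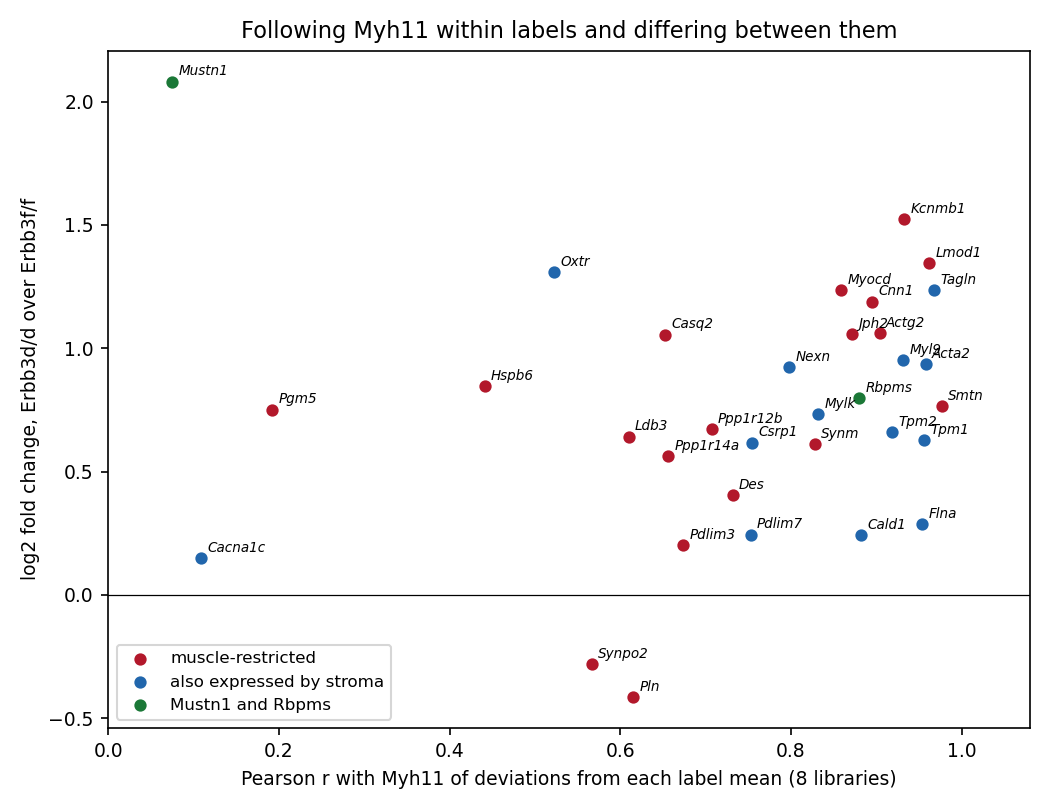
Log2 fold change, Erbb3d/d over Erbb3f/f (vertical), against the Pearson r with Myh11 after each label's mean was removed (horizontal), for the 33 genes other than Myh11. Mustn1 and Pgm5 sit at the left with r of 0.075 and 0.192, Smtn and Tagln at the right with 0.977 and 0.968.

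Among genes outside the set with a mean of at least 5 CPM, the 5 with the highest r with Myh11 over the 8 libraries were Aoc3 at 0.990, Id4 at 0.986, Pcp4 at 0.984, Slmap at 0.982 and Pcp4l1 at 0.977. Aoc3 encodes a membrane amine oxidase, Id4 an inhibitor of helix-loop-helix transcription factors, Pcp4 a calmodulin-binding peptide and Pcp4l1 its relative, and Slmap a membrane-associated protein that is also on the wider contraction list. Their log2 fold changes lay between 0.46 for Slmap and 1.12 for Pcp4l1, and none passed the adjusted p in edgeR.

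Marker genes of other cells were measured beside these genes. Of 20 epithelial markers 18 were higher, 14 of them at an unadjusted p under 0.05, against 6.64% of all genes. Their summed level was 1225 to 2012 CPM in Erbb3f/f and 1861 to 3159 CPM in Erbb3d/d. It was highest in Erbb3d/d replicates 4 and 3, at 3159 and 3105 CPM, and stood at 1890 CPM in Erbb3d/d replicate 1, where the contractile genes peaked. Pericyte and vascular wall markers, 10 of 12 tested, split evenly with 5 higher and 5 lower, and their sum was 148 to 389 CPM in Erbb3f/f and 186 to 326 CPM in Erbb3d/d. Their median level was high in replicates 1 and 2 and lower in replicates 3 and 4 of both labels. Of the pericyte markers, Cox4i2 had a log2 fold change of -0.74 (SE 0.44), Mcam of 0.49 (SE 0.33) and Cspg4 of 0.25 (SE 0.21), while the most abundant, Rgs5, averaged 70.3 ± 54.6 CPM (SD, n = 4) for Erbb3f/f against 46.9 ± 28.4 CPM (SD, n = 4) for Erbb3d/d.

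Endothelial markers were higher for 13 of 14, with sums of 466 to 801 CPM in Erbb3f/f and 470.3 to 862 CPM in Erbb3d/d and 0 at an unadjusted p under 0.05. Of 16 skeletal and cardiac markers 4 were tested, and Myh4 and Pvalb had 0 reads in every library. General stromal genes were lower for 14 of 20, 6 of them at an unadjusted p under 0.05, against 4.97% of all genes. Pdgfra led them at -0.56 (SE 0.13). Immune markers, at 2021 to 4210 CPM against 2782 to 3264 CPM, and mesothelial markers, at 316 to 525 CPM against 293 to 458 CPM, overlapped between the labels. The part of any of these cell types in the level of the contractile genes was not tested.

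**Figure D5:**
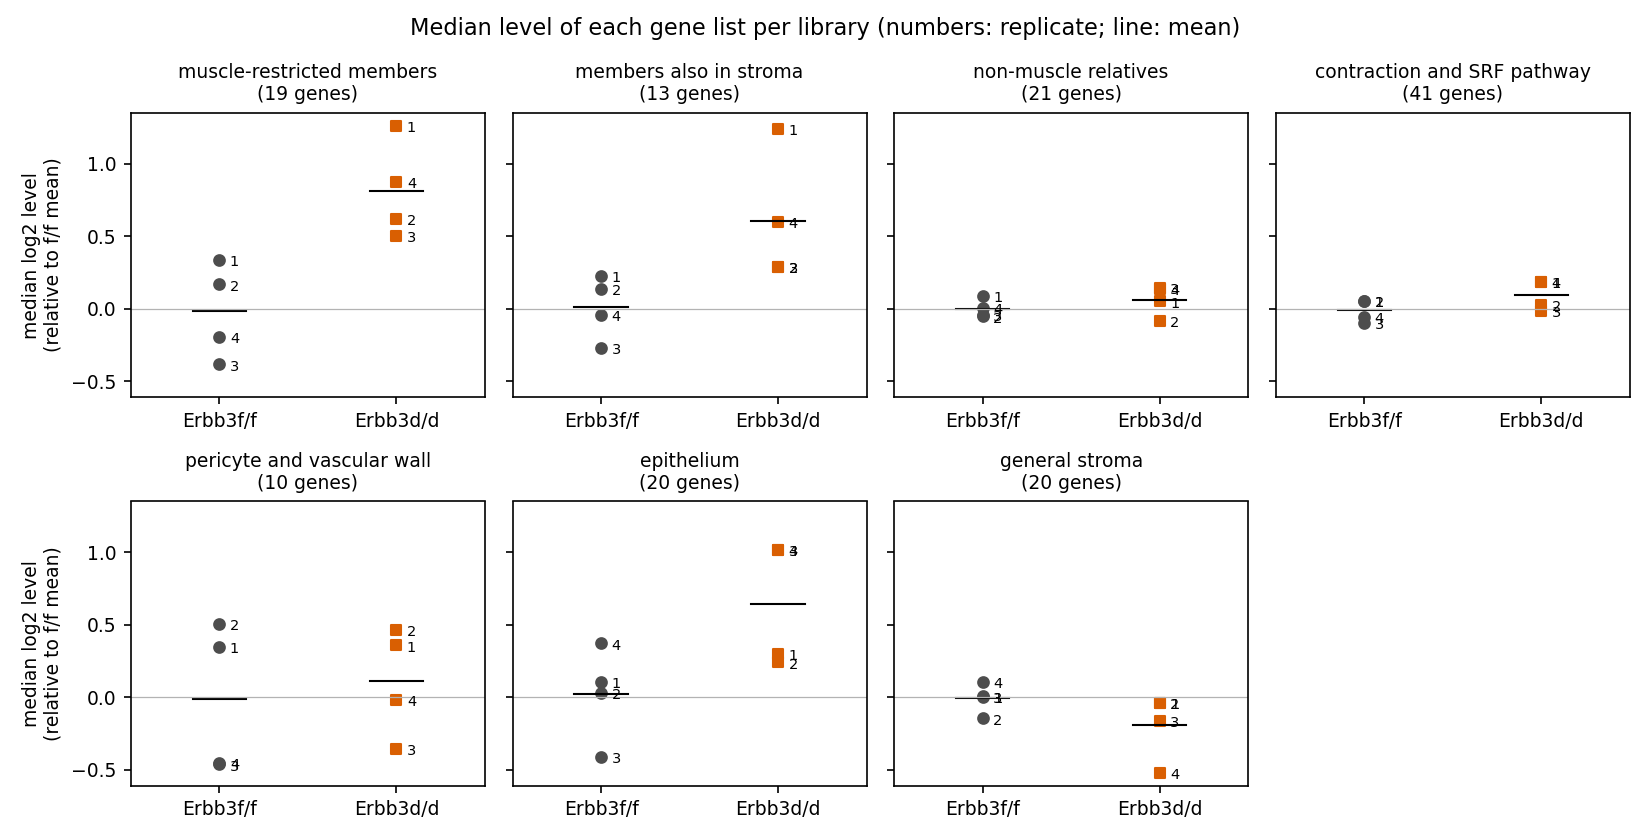
Median level of each gene list in each library (vertical, log2 relative to the mean of the Erbb3f/f libraries), points numbered by replicate, with the mean of each label as a line. Muscle-restricted genes stand at 0.50 to 1.26 in Erbb3d/d, the mainly non-muscle relatives at -0.08 to 0.14, and epithelial markers are highest in Erbb3d/d replicates 3 and 4.

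By position in GENCODE vM21 on GRCm38, Myh11 spans 14194535 to 14291372 of chromosome 16, minus strand, with 43 merged exons. Mustn1 spans 30879200 to 30881610 of chromosome 14, plus strand, with 3 exons, and Rbpms spans 33782643 to 33929863 of chromosome 8, minus strand, with 17. None of these 3 shares exon bases with another gene. Of the 34 genes, 8 share exon bases with a gene on the other strand (Des, Hspb6, Mylk, Pln, Ppp1r12b, Smtn, Synm and Tagln), and in unstranded libraries the reads there cannot be told apart. Only Mylk and Hspb6 of these 8 are among the 13 genes that did not overlap between the labels.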

How the data were processed

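RNA of 8 libraries of mouse uterine stromal cells was read in pairs of 150 bases without strand, per the labels' protocols. The authors deposited 1 table of raw read counts per library, with HISAT2, SAMtools, HTSeq and StringTie and the builds mm10 and GRCm38 named in the submitters' processing notes without versions. The annotation and whether a count is a read or a pair are not given in the sources used here. Lines that name no gene stayed out of library sizes, which left 27.0% to 29.1% of entries.

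Counts were tested with edgeR 4.0.16 (R 4.3.3, limma 3.58.1; filterByExpr, TMM scaling, robust quasi-likelihood fit, Benjamini-Hochberg at 0.05 over 14598 genes) on the labels alone. CPM use the scaled library size. Correlations used log2(CPM + 0.5), with all 40320 pairings permuted. DESeq2 1.42.0, other scalings, no filter, the replicate number as a block and each library left out in turn were alternatives. On simulated counts of 14626 genes, edgeR recovered 68 of 100 genes changed 2-fold and 98 of 99 changed 4-fold, with 9 false calls. Recovery in the measured libraries was not tested. There, 11 of the 34 genes had a log2 fold change of at least 1, and edgeR called 0 of them. Gene positions came from GENCODE vM21 on GRCm38 (92.8% of symbols matched 1 gene, all 34 of the set), read with Python 3.11.15.

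The genes and lists were chosen with earlier results of these data known. Every gene of the set may be named. Outside it, the genes that could be named were the targeted gene Erbb3, the 5 with the highest r with Myh11 and, from each list, the 3 with the smallest p and the most abundant. Srf, Myh4 and Pvalb fall outside this rule and were named after their values were seen.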

Additional observations from a re-analysis of the deposited data

Results flagged for a closer look

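In groups of 4 libraries, a library whose gap to its nearest neighbour takes up more of the group's range than Dixon's critical value allows was picked out. Of 68 groups examined, 2 were picked out, where chance gives about 1 in 20, or 3.4. Jph2, junctophilin, stood at 129.9 CPM in Erbb3d/d replicate 1, with the next library of that label at 70.1 CPM. Oxtr, the oxytocin receptor, stood at 34.35 CPM in Erbb3f/f replicate 2, with the next at 28.99 CPM. Erbb3d/d replicate 1 was also the highest library for 27 of the 34 genes.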

How the results depend on the processing

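No gene was called in the edgeR fit used for the text, and the count of calls moved with the tool. DESeq2 called 262 genes, 9 of them in the contractile set. With the replicate number as a block, edgeR called 52 genes, 5 of them in the set (Cnn1, Actg2, Acta2, Mustn1 and Rbpms). Same-numbered libraries correlated at 0.221, 0.159, 0.0959 and 0.145 in their deviations from the label means, all positive but not all above 0.1. The numbers were therefore not taken to pair the libraries, and Erbb3f/f replicate 4 correlated best with Erbb3d/d replicate 3 (0.302). Replicates 1 and 2 of either label correlated negatively with replicates 3 and 4 of the other, from -0.296 to -0.0117. Between replicates 1 and 2 of both labels, and between 3 and 4 of both, values were positive. The exception was Erbb3f/f replicate 2 with Erbb3d/d replicate 1 (-0.0607). The fit used for the text does not model this shared pattern. Leaving out 1 library gave 0 to 259 calls over all genes and 0 to 6 in the set, all of them without Erbb3d/d replicate 2. The number of genes in the set without overlap ranged from 13 to 23. Fewer libraries separate more easily, so each count goes with its share of all genes separated in the same direction: 23 without Erbb3d/d replicate 3 (3.82% of all genes), 19 without Erbb3f/f replicate 1 (4.18%) and 13 with all libraries (2.56%). Log2 fold changes kept their sign for all 34 genes under RLE, upper quartile and total-count scaling, no filter, DESeq2 and the block, and in each case of 1 library left out except Pdlim3, whose value ranged from -0.083 without Erbb3d/d replicate 1 to 0.33 without Erbb3d/d replicate 3. The fold change of Myh11 ranged from 0.79 to 1.33 over the libraries left out and that of Mustn1 from 1.82 to 2.28. The log2 ratio of Mustn1 to Myh11 ranged from 0.45 to 1.05 and that of Rbpms from -0.51 to -0.09. The replicate block gave an exact p of 0.25 for each ratio, where 4 pairs cannot give less than 0.125. Low counts limit Casq2, Pln, Myocd and Mustn1. Causes of these shifts were not tested.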
